A study of Homo sapiens with 6 samples.

Results

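Myoglobin (MB), cytoglobin (CYGB) and 8 genes of the hypoxia response (HIF1A, EPAS1, VEGFA, CA9, EGLN3, NDRG1, ADM and ANKRD37) were examined in A549 cells in which a regulatory site of SFTPB, the gene of surfactant protein B, had been silenced. These 10 genes were taken by symbol from the 26485 gene symbols counted, and 9 of them had enough counts to be among the 13356 genes tested. MB was chosen by its lower counts after silencing in these same libraries, and the others were added beside it with results of this contrast known, so the values of all 10 are given as a description, without a test. The question asked was whether the lower MB level went with a change in hypoxia response genes.

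RNA was sequenced in 3 libraries from cells given the sgRNA control, which has no target, and in 3 libraries from cells given sgRNA #2, whose target lies in the first intron of SFTPB. All 6 libraries came from A549, a single human lung adenocarcinoma cell line, carrying 2 stably introduced constructs. One was dCas9-KRAB, a Cas9 that cannot cut DNA, joined to the repressor domain KRAB. The other was rat Nkx2-1, a lung transcription factor expressed from the PGK promoter. No oxygen level, hypoxia treatment or hypoxia mimic was stated for any library, so every value below is a level in routine culture, and a hypoxic sample for comparison was not analysed here.

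Myoglobin is the oxygen-binding globin of heart and skeletal muscle, and some carcinoma cells also express it at low levels. Cytoglobin is a related globin found in fibroblast-like cells of many tissues. When oxygen is short, the prolyl hydroxylases that mark HIF alpha subunits for destruction slow down, the subunits HIF-1 alpha (HIF1A) and HIF-2 alpha (EPAS1) become stable, and they raise the transcription of genes for glycolysis, blood vessel growth, pH control and feedback on the pathway itself. HIF alpha subunits are controlled mainly at the level of protein, which RNA counts do not measure, so the RNA of their target genes is the usual readout of the pathway.

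The site targeted by sgRNA #2 and the sequences upstream of the 3 members that were lower in every pair of libraries are shown because the comparison starts from them. The target below lies on the minus strand at chr2:85668529-85668551 (hg38), where it had 1 exact match in the genome, and the capitals mark the PAM, the motif Cas9 needs beside its target.

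sgRNA #2 target: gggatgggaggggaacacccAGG

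Near MB, in the 500 kb on either side of its annotated 5′ end, 1 site matched the guide with at most 4 mismatches and an NGG PAM. It lies on the minus strand at chr22:35564151-35564173, between RASD2 and MB, 73797 bp downstream of the MB start and 42610 bp past the end of MB. Distances here and below are from the outermost GENCODE 5′ end of MB, which lies 14597 bp upstream of the RefSeq start used for the promoter sequence. From the RefSeq start the site lies 59200 bp downstream. How often windows of this size around other genes hold such a site was not counted, so the site cannot be called unusual. Capitals mark the mismatched bases and the PAM.

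site near MB: gggGtgggaggggaTcaTcTGGG

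Counted from 1 at the 5′ end of the guide, the substitutions from guide to site were A4G, A15T, C18T and C20T, so 0 bases next to the PAM matched without a break. Within 1000 bp of an annotated start of MB, the longest run of PAM-proximal guide bases followed by NGG was 5 bases, a run at least as long as which was found in 76.6% of the 13082 tested genes that could be placed on the genome. For the other members the longest run within 1000 bp was 4 to 6 bases. Within 2000 bp, HIF1A had a run of 9 bases, which 0.711% of tested genes reached, and the HIF1A level is given below. Binding of dCas9-KRAB at any of these places was not measured in the libraries used here.

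The 250 bases upstream of the RefSeq start (GRCh38.p14) of MB (chr22:35623355-35623604, minus strand), CA9 (chr9:35673678-35673927, plus strand) and ADM (chr11:10304823-10305072, plus strand) are given in the direction of transcription. Capitals mark the core of the hypoxia response element, searched on both strands as ACGTG or GCGTG.

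MB: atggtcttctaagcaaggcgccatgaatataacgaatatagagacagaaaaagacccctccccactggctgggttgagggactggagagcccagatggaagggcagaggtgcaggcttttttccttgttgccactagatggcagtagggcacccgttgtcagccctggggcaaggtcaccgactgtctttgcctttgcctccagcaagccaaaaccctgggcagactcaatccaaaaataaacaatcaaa

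CA9: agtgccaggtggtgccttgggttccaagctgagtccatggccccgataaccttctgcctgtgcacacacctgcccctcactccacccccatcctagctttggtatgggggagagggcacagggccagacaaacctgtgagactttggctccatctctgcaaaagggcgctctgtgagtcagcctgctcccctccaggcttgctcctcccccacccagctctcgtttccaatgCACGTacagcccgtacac

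ADM: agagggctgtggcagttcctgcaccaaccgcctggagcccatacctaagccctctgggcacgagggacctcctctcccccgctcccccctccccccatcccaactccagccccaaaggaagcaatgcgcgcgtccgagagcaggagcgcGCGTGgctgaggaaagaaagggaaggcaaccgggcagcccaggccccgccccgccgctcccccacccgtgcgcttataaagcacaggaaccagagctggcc

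MB had 0 such cores in the 300-base promoter window at its RefSeq start. MB has 10 annotated transcripts, and windows at its other annotated starts were not searched. Which start of MB these cells used was not examined. CA9 had 1 ACGTG core on the minus strand beginning 18 bases before the start, and ADM had 1 GCGTG core beginning 101 bases before it. Of the other members with a promoter in the table, HIF1A and EPAS1 each had 1 GCGTG core, ANKRD37 had 3 ACGTG cores and EGLN3 had 0. Of all 27305 promoters of this length, 21.6% held ACGTG, 36.3% held GCGTG and 48.4% held either. Among promoters of tested genes these shares were 26.6%, 50.8% and 63.2%, so a core in this window is common. A core is a run of letters and not a measured binding site.

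The libraries held between 6047554 and 7584611 reads counted on genes, and 3 counts, taken as the floor of detection, corresponded to 0.396 to 0.496 CPM (counts per 1000000 counted reads). Counts of the targeted gene SFTPB were 2683, 2877 and 3155 with the sgRNA control but 40, 42 and 49 with sgRNA #2, a level 98.4% lower. Libraries of a group differed by more than sampling noise. Same-numbered libraries of the groups shared part of their deviations, and a pair below means such libraries. Reads came from whole cultures, so fewer cells expressing a gene and less RNA per cell cannot be told apart.

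MB, the muscle globin, was lower in the sgRNA #2 libraries. Its counts were 58, 56 and 103 with the sgRNA control and 35, 24 and 39 with sgRNA #2. Every sgRNA #2 library lay below every sgRNA control library, and the third control library stood above its other two. In CPM, scaled to library size, the control level was 10.2 ± 2.93 (SD, n = 3) and the sgRNA #2 level 5.02 ± 1.44 (SD, n = 3), which is 50.9% lower. The log2 fold change was -1.04 with a standard error (SE) of 0.240. MB lies at chr22:35606764-35637951 on the minus strand (hg38) and overlaps 1 annotated long noncoding RNA gene on the same strand. How reads shared with that gene were counted is uncertain, because the annotation used for counting is not given in the sources used here.

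MB was the 1 member past both cut-offs of the study, an adjusted p-value under 0.05 and a log2 fold change of at least 1 in size. Over all 13356 tested genes, 0.719% were past both, 0.689% with a lower and 0.0299% with a higher level, and with the replicate number as a block 0.913% were past both. Since the choice of members used this contrast, nothing is read from that count. By size of fold change MB ranked 89 of the 92 genes past both cut-offs and lower, next to the cut-off itself. The smallest such change was -1.002, and the largest decrease that did not reach the cut-off, among genes that passed on adjusted p-value, was -0.99. Leaving out 1 library moved the log2 fold change of MB to between -1.26 and -0.78. MB no longer passed both cut-offs without sgRNA control replicate 3 (log2 fold change -0.78), without sgRNA #2 replicate 1 (-1.04) or without sgRNA #2 replicate 2 (-0.86).

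**Figure D1:**
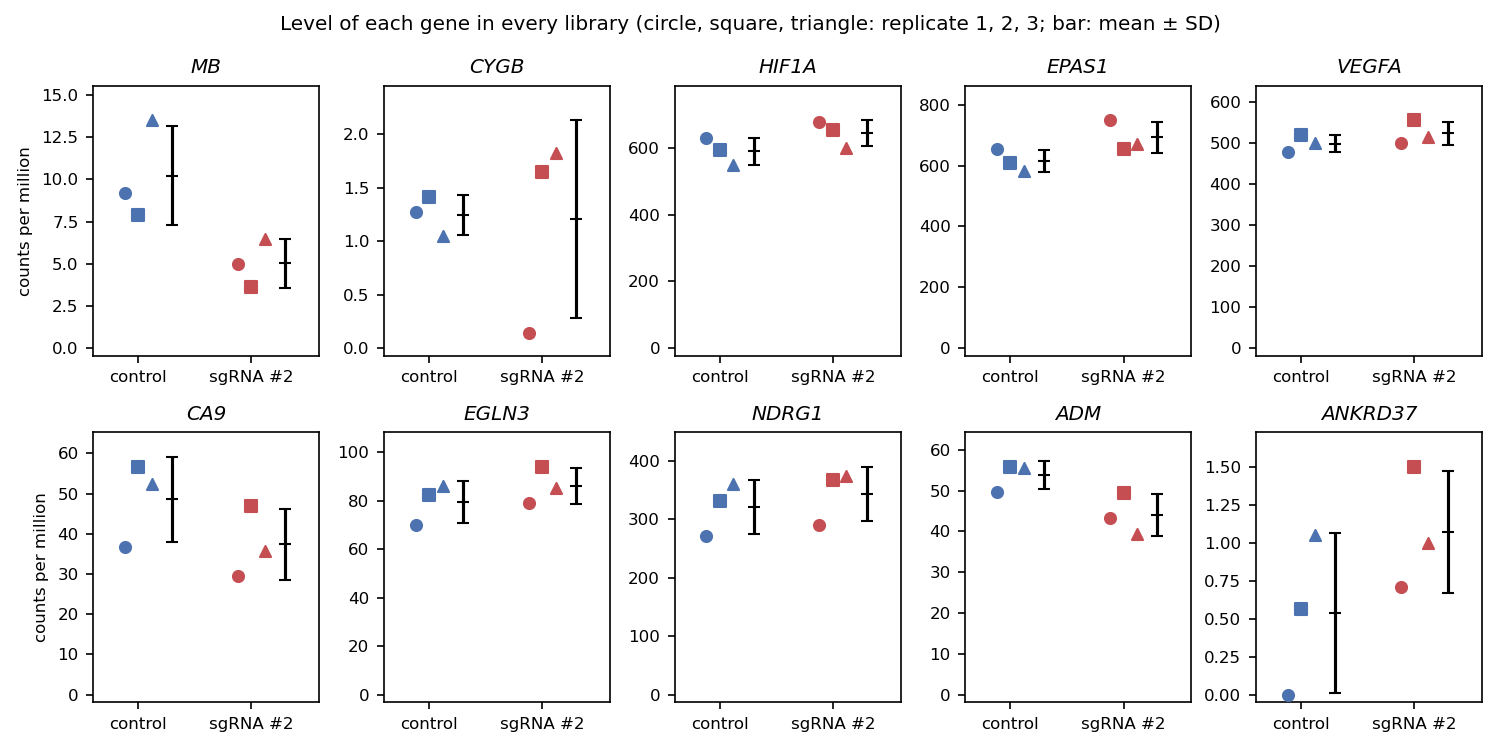
Level of each of the 10 genes in CPM on a linear axis from 0, with 1 point per library, 3 per group, and bars for the mean and SD. MB was 10.2 ± 2.93 CPM with the sgRNA control and 5.02 ± 1.44 CPM with sgRNA #2 without overlap, while points of the 2 groups overlapped for CYGB, HIF1A, VEGFA, CA9, EGLN3, NDRG1 and ANKRD37.

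CYGB was barely detected. Its counts were 8, 10 and 8 with the sgRNA control and 1, 11 and 11 with sgRNA #2. The groups overlapped, and the single count in sgRNA #2 replicate 1 lay under the floor of detection. The level was 1.25 ± 0.184 CPM (SD, n = 3) against 1.21 ± 0.926 CPM (SD, n = 3), and the log2 fold change was -0.08 (SE 0.529). Without sgRNA #2 replicate 1 it was 0.48, on the other side of zero, so the direction of any change of CYGB could not be told from these counts. The size of change that could be detected at this depth was not tested. CYGB lies at chr17:76527356-76551175 on the minus strand and overlaps PRCD on the other strand. Reads shared with overlapping genes may be uncertain because the strand setting of the counting is not given in the sources used here.

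Of the 12 other globin genes listed (neuroglobin, androglobin and the hemoglobin chains), 5 had any count and 1, the theta hemoglobin gene HBQ1, could be tested. HBQ1 had 20, 20 and 26 counts with the sgRNA control and 28, 27 and 18 with sgRNA #2, with a log2 fold change of 0.23 (SE 0.252) and a Benjamini-Hochberg adjusted p-value of 0.832 in the quasi-likelihood test of edgeR. NGB, ADGB, HBB, HBA2, HBD, HBG1 and HBG2 were at 0 counts in all 6 libraries.

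The RNAs of both HIF alpha subunits were abundant and slightly higher in each sgRNA #2 library than in the sgRNA control library of the same number. HIF1A had 3959, 4189 and 4180 counts with the sgRNA control and 4769, 4361 and 3610 with sgRNA #2. In CPM the groups overlapped, at 590 ± 40.4 (SD, n = 3) and 644 ± 39.4 (SD, n = 3), with a log2 fold change of 0.13 (SE 0.0698). HIF1A lies at chr14:61695513-61748259 and has annotated antisense genes.

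EPAS1, which encodes HIF-2 alpha, had 4122, 4294 and 4446 counts with the sgRNA control and 5275, 4375 and 4040 with sgRNA #2. Scaled to library size the groups did not overlap but all but touched, with 655.2 CPM in the highest control library and 655.8 CPM in the lowest sgRNA #2 library. The means were 615 ± 36.5 CPM (SD, n = 3) and 692 ± 49.8 CPM (SD, n = 3), and the log2 fold change was 0.17 (SE 0.0699). EPAS1 lies at chr2:46293667-46386697 on the plus strand.

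EGLN3 encodes prolyl hydroxylase PHD3, which acts on HIF alpha subunits and is itself raised by HIF as feedback. It had 440, 582 and 658 counts with the sgRNA control and 557, 628 and 514 with sgRNA #2. The groups overlapped, with 79.5 ± 8.55 CPM (SD, n = 3) against 86.2 ± 7.55 CPM (SD, n = 3), a log2 fold change of 0.11 (SE 0.0876), and the level was higher in 2 of 3 pairs. The gene lies at chr14:33924227-34462774 and overlaps SPTSSA on the same strand.

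VEGFA, which encodes the growth factor that drives blood vessel growth, had 3001, 3665 and 3809 counts with the sgRNA control and 3528, 3706 and 3088 with sgRNA #2. Its level was 498 ± 20.7 CPM (SD, n = 3) against 523 ± 28.6 CPM (SD, n = 3), with a log2 fold change of 0.07 (SE 0.0650). The groups overlapped, although each sgRNA #2 library was above the control library of its number. VEGFA lies at chr6:43770184-43786487.

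CA9 encodes carbonic anhydrase IX, a cell surface enzyme of pH control and a widely used marker of hypoxia. It had 231, 401 and 399 counts with the sgRNA control and 207, 313 and 215 with sgRNA #2. The level was 48.6 ± 10.5 CPM (SD, n = 3) against 37.4 ± 8.87 CPM (SD, n = 3), a log2 fold change of -0.39 (SE 0.155). CA9 was lower in 3 of 3 pairs, but the groups overlapped, because the highest and lowest sgRNA control libraries already differed 1.54-fold. CA9 lies at chr9:35673928-35681159 and overlaps ARHGEF39 on the other strand.

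ADM, which encodes the vasodilating peptide adrenomedullin, had 313, 395 and 423 counts with the sgRNA control and 304, 330 and 237 with sgRNA #2. The groups did not overlap once scaled, with 53.7 ± 3.43 CPM (SD, n = 3) against 44.01 ± 5.08 CPM (SD, n = 3), which is 18.1% lower. The log2 fold change was -0.29 (SE 0.0953). ADM lies at chr11:10305073-10307397 with no overlapping gene annotated.

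NDRG1, a stress-responsive gene that HIF raises, had 1706, 2347 and 2747 counts with the sgRNA control and 2042, 2449 and 2247 with sgRNA #2. The level was 321 ± 45.6 CPM (SD, n = 3) against 344 ± 46.6 CPM (SD, n = 3), with a log2 fold change of 0.09 (SE 0.100) that became -0.01 without sgRNA control replicate 1. The groups overlapped, and the 1.33-fold spread among the control libraries was wider than the 1.07-fold difference between group means. NDRG1 lies at chr8:133237175-133302022.

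ANKRD37, a small ankyrin repeat gene that HIF-1 raises, had 0, 4 and 8 counts with the sgRNA control and 5, 10 and 6 with sgRNA #2. It fell short of the count filter and was not tested, and no fold change is given. ANKRD37 lies at chr4:185396021-185400628 and overlaps UFSP2 on the other strand.

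Among the 9 tested members, 3 had groups that did not overlap (MB and ADM lower, EPAS1 higher). Of all tested genes 15.6% did not overlap, 8.83% with a lower level, and nothing is read from the members' share. MB, CA9 and ADM were lower in all 3 pairs, as were 19.8% of all tested genes, and HIF1A, EPAS1, VEGFA and NDRG1 were higher in all 3 pairs, as were 19.7% of all tested genes. Nothing is read from these shares either. CYGB was lower in 1 of 3 pairs.

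**Figure D2:**
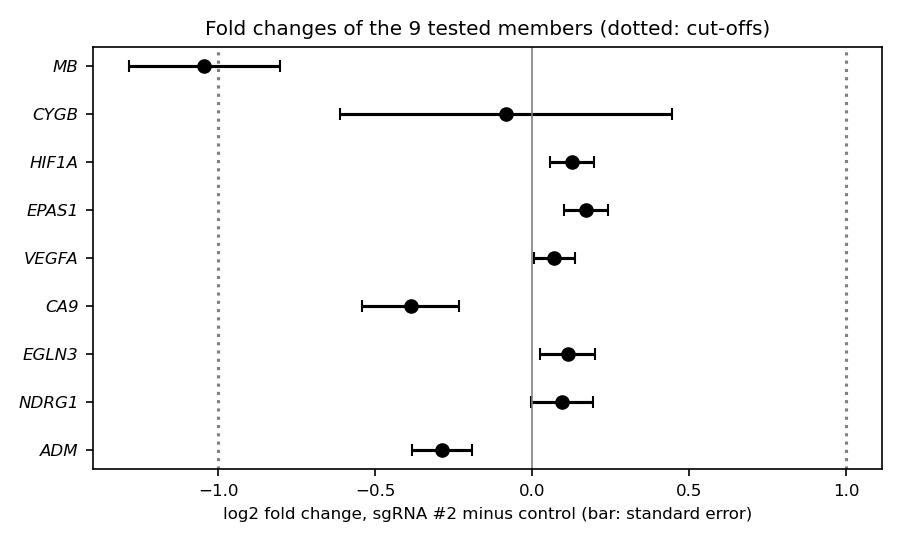
Log2 fold change of sgRNA #2 against the sgRNA control for the 9 tested genes, with bars of 1 SE and dotted lines at the cut-off of 1 in size. Values run from -1.04 for MB to 0.17 for EPAS1. The SE of CYGB, 0.529, is the widest of the 9.

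Compared per kilobase of annotated exon, as RPKM (CPM divided by exon length in kilobases), the order of levels in the sgRNA control libraries was HIF1A (115), EPAS1 (84.4), VEGFA (34.5), CA9 (30.4), NDRG1 (26.8), ADM (23.1), EGLN3 (10.8), MB (4.78), CYGB (0.452) and ANKRD37 (0.239). The steps from VEGFA to CA9 and from CA9 to NDRG1 were smaller than the SD of CA9 (6.58 RPKM, n = 3), and the step from NDRG1 to ADM was smaller than the SD of NDRG1 (3.80 RPKM, n = 3), so these neighbours did not differ beyond their spread, whereas VEGFA and ADM lay further apart than their SDs. With sgRNA #2 the RPKM was 2.35 for MB, 23.4 for CA9 and 18.9 for ADM. Exons of all annotated transcripts were joined for the length, which lowers the RPKM of genes with many long transcripts.

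To see the pathway beyond the members, 68 other genes known to be raised by HIF were examined, of which 64 could be tested. In the quasi-likelihood test of edgeR, 0 of the 64 passed both cut-offs, 12 had an unadjusted p-value under 0.05 (6 lower and 6 higher), and 0 passed both in DESeq2. Of all tested genes 0.719% passed both cut-offs in edgeR, so 0 of 64 lies close to the share of all genes. An unadjusted p-value under 0.05 was reached by 11.1% of all tested genes. On adjusted p-value alone 4 passed (6.25%), 3 lower and 1 higher, and 2 passed in DESeq2. Of all tested genes 2.69% passed on adjusted p-value, 2.22% lower and 0.464% higher. The median log2 fold change of the 64 was 0.02, with 30 below zero and 34 above, against 0.00 over all tested genes, and the range was -0.47 to 0.46. With the replicate number as a block, 15 passed on adjusted p-value (8 lower and 7 higher, 23.4%), against 10.0% of all tested genes, 6.06% lower and 3.97% higher.

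**Figure D3:**
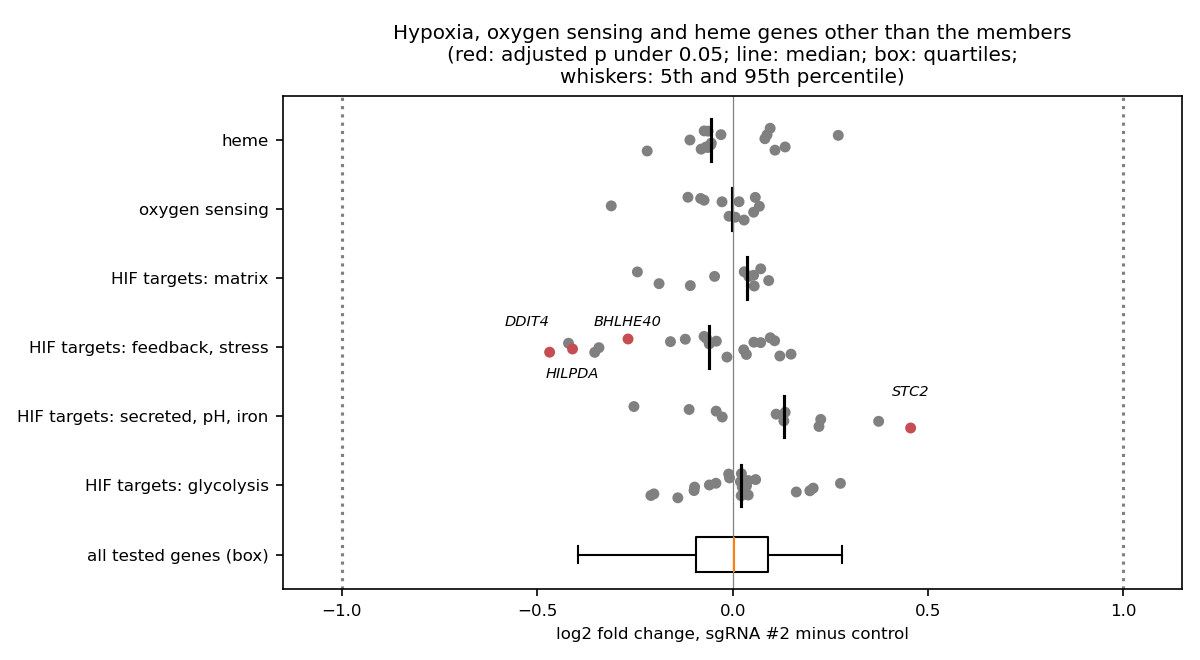
Log2 fold change of sgRNA #2 against the sgRNA control for each tested gene of the HIF target, oxygen sensing and heme lists, with 1 point per gene, red where the adjusted p-value was under 0.05, a bar at each list's median and a box for the quartiles of all tested genes (whiskers at the outer percentiles named in the plot). The 64 HIF target genes range from -0.47 to 0.46 with a median of 0.02.

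The 1 target that was higher and passed on adjusted p-value was STC2, stanniocalcin 2, a secreted glycoprotein of the signalling group. STC2 had 2051, 1943 and 2242 counts with the sgRNA control and 3279, 2492 and 2329 with sgRNA #2, or 298 ± 25.9 CPM (SD, n = 3) against 409 ± 49.6 CPM (SD, n = 3). The groups did not overlap, and the log2 fold change was 0.46 (SE 0.0840, adjusted p = 0.00407, edgeR). In that group of 11 tested genes for secreted factors, receptors and transporters, 1 passed on adjusted p-value and, with the block, 6 (1 lower and 5 higher). These are 9.09% without and 54.5% with the block, against 2.69% and 10.0% of all tested genes. IGFBP3, which binds insulin-like growth factors, had a log2 fold change of 0.23 with an adjusted p of 0.233 in edgeR and 3.24e-06 with the block. TFRC, the transferrin receptor that brings iron into cells, had 0.22 (adjusted p = 0.151 in edgeR, 4.31e-06 with the block).

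The targets that were lower and passed on adjusted p-value belonged to the group of feedback and stress genes. In it 3 of 21 tested genes passed, all lower (14.3%, against 2.69% of all tested genes). DDIT4, an inhibitor of mTOR signalling, had 2076, 3013 and 3544 counts with the sgRNA control and 1745, 1989 and 2036 with sgRNA #2. Its log2 fold change was -0.47 (SE 0.112, adjusted p = 0.0284, edgeR), although the groups overlapped and DESeq2 gave an adjusted p of 0.362. BHLHE40, a transcriptional repressor, had 2396, 2980 and 3248 against 2339, 2262 and 2104 counts, with a log2 fold change of -0.27 (SE 0.0649, adjusted p = 0.0313, edgeR).

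HILPDA, a lipid droplet protein, was chosen for naming after its values were seen. It had 312, 397 and 512 counts with the sgRNA control and 299, 284 and 275 with sgRNA #2, with a log2 fold change of -0.41 (SE 0.103, adjusted p = 0.0397, edgeR) and an adjusted p of 0.0540 in DESeq2. DDIT4, BHLHE40 and HILPDA each lost the adjusted p-value when single libraries were left out: without sgRNA control replicates 2 or 3 or sgRNA #2 replicates 1 or 2 for all of them, and also without sgRNA #2 replicate 3 for BHLHE40 and HILPDA. STC2 stayed under 0.05 in all 12 alternatives.

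**Figure D4:**
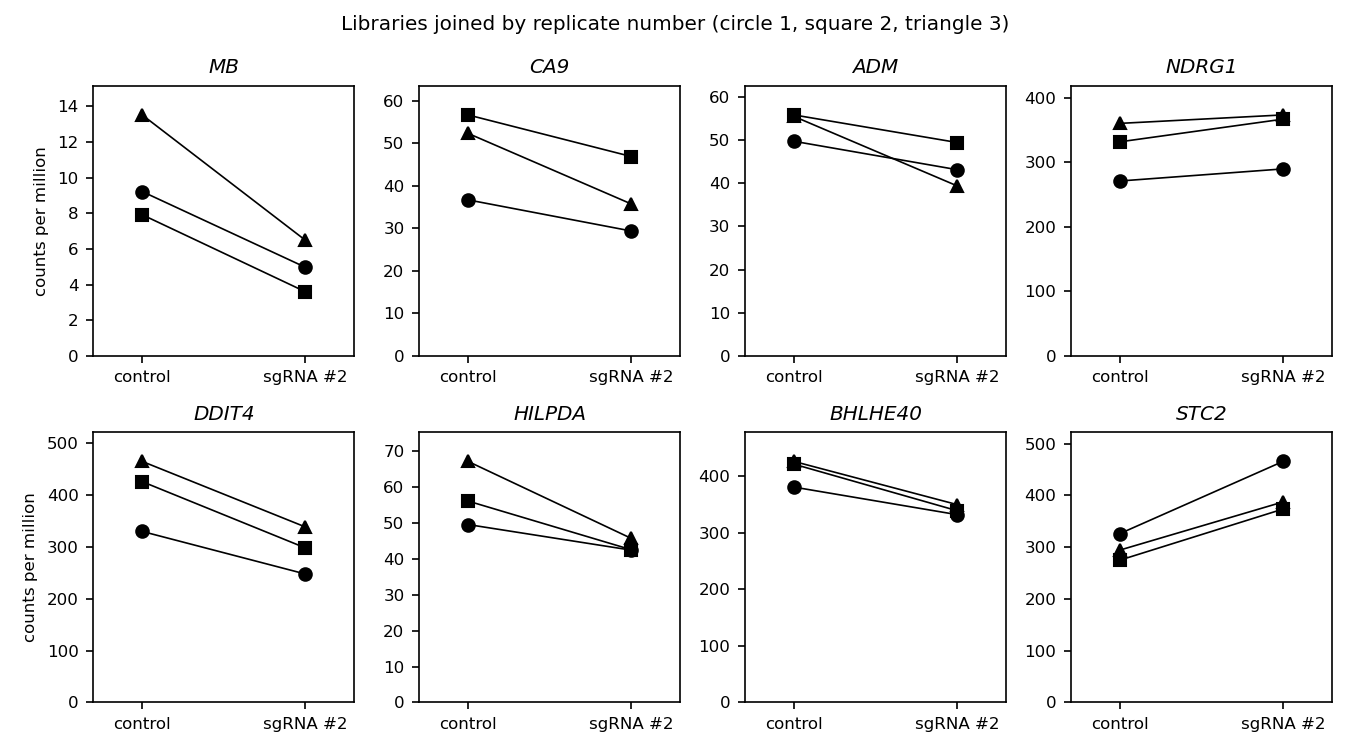
Level in CPM, on linear axes from 0, of 4 members (MB, CA9, ADM and NDRG1) and of the 4 other HIF targets that passed on adjusted p-value, with lines joining the sgRNA control and sgRNA #2 libraries of the same replicate number (circle 1, square 2, triangle 3). All 3 lines slope down for MB, CA9, ADM, DDIT4, HILPDA and BHLHE40 and up for NDRG1 and STC2.

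Of 22 tested genes of glycolysis and glucose use, 0 passed on adjusted p-value and 4 did with the block (2 lower and 2 higher). That is 18.2% with the block, against 10.0% of all tested genes. The abundant enzymes hardly differed, with log2 fold changes of 0.02 for GAPDH, -0.01 for ENO1 and 0.02 for PKM (adjusted p of 0.939, 0.979 and 0.948, edgeR). HK2, a hexokinase of the first step of glycolysis, though not the only one in the list, had 0.28 (SE 0.102). Its adjusted p was 0.247 in edgeR and 0.0188 with the block. GPI, the next enzyme, had -0.21 (SE 0.0638), with an adjusted p of 0.115 in edgeR and 2.37e-05 with the block. Of 10 tested genes of collagen and matrix modification, 0 passed and 1, COL5A1, did with the block (log2 fold change -0.24, adjusted p = 0.0469 with the block, edgeR).

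Of 12 tested genes of oxygen sensing other than the members, 0 passed on adjusted p-value in edgeR (2.69% of all tested genes did), and DESeq2 gave 0. An unadjusted p-value under 0.05 was reached by 1 of them, against 11.1% of all tested genes. That 1 gene was TCEB2, elongin B of the VHL ubiquitin ligase, with a log2 fold change of -0.31 (SE 0.111) and an adjusted p of 0.222 in edgeR and 0.0201 with the block. The hydroxylases EGLN1 and HIF1AN had log2 fold changes of -0.07 and 0.01, and VHL had 0.06.

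Globins carry heme, so 16 genes of heme synthesis, breakdown and transport were also examined. In edgeR, 0 of the 16 passed on adjusted p-value, 2 had an unadjusted p-value under 0.05 (11.1% of all tested genes did), and DESeq2 gave 0. With the block 3 passed (18.8%), against 10.0% of all tested genes. For FLVCR1, a heme exporter, the log2 fold change was 0.27, with an adjusted p of 0.0839 in edgeR and 5.71e-04 with the block. HMOX1, heme oxygenase 1, had 0.13 (0.586 and 0.0264), and BLVRB, biliverdin reductase B, had -0.22 (0.216 and 8.23e-04).

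The neighbourhood of MB was described because the site with 4 mismatches lies in it. Of 11 listed genes within 500 kb of the MB start, 7 could be tested, and 0 passed both cut-offs in edgeR or DESeq2. Over all tested genes 0.719% passed both in edgeR. In edgeR 2 had an unadjusted p-value under 0.05 (11.1% of all tested genes did). On adjusted p-value 1 passed in edgeR (2.69% of all tested genes did). That gene was APOL6, an apolipoprotein L gene at chr22:35648446-35668404 on the plus strand, whose 5′ end lies 10495 bp upstream of the GENCODE 5′ end of MB and 25092 bp upstream of its RefSeq start. APOL6 had 584, 633 and 635 counts with the sgRNA control and 439, 417 and 334 with sgRNA #2, or 88.6 ± 4.82 CPM (SD, n = 3) against 60.1 ± 3.97 CPM (SD, n = 3). The groups were well apart, with a log2 fold change of -0.56 (SE 0.0777, adjusted p = 2.52e-04, edgeR) that passed on adjusted p-value in all 12 alternatives.

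RASD2, a small GTPase gene at chr22:35540831-35553999 on the plus strand, starts 97120 bp downstream of the MB start, on the far side of the site with 4 mismatches. It had 52, 62 and 85 counts with the sgRNA control and 33, 32 and 47 with sgRNA #2, and scaled to library size its groups did not overlap. Its log2 fold change was -0.73 (SE 0.216), with an adjusted p of 0.102 in edgeR and 0.00167 with the block. The other tested neighbours had log2 fold changes of -0.20 (TOM1), -0.07 (MCM5), -0.04 (RBFOX2), 0.05 (HMGXB4) and 0.13 (HMOX1).

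**Figure D5:**
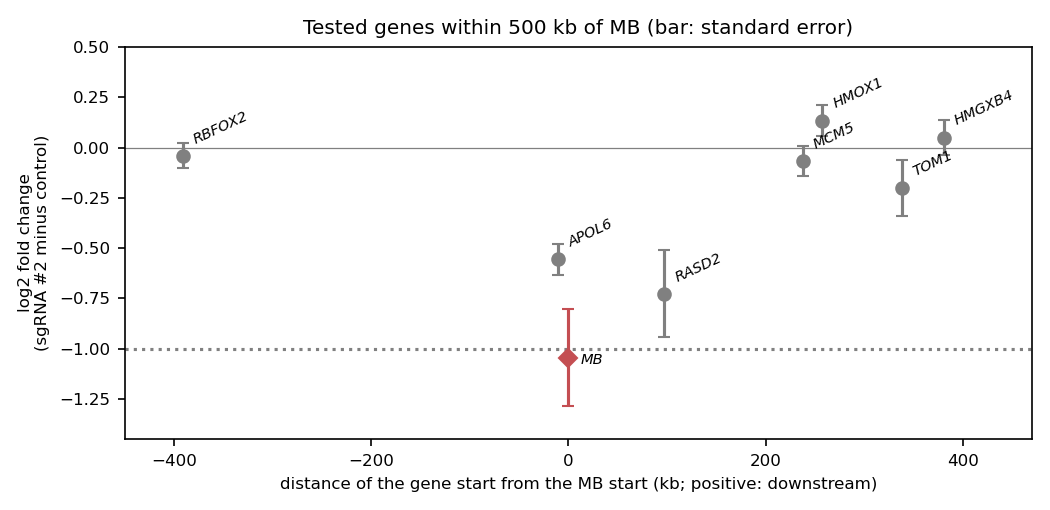
Log2 fold change of the tested genes within 500 kb of the 5′ end of MB, with bars of 1 SE, against the distance of each gene's 5′ end from that of MB in kb. MB (-1.04), RASD2 (-0.73) and APOL6 (-0.56) lie lowest, and the other genes lie between -0.20 and 0.13.

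By profile over the 6 libraries, the tested genes closest to MB were CKB, NID2, SUSD2, ENTPD2 and RASA3. Likeness was measured as the root mean square difference of log2(CPM + 1) after centring on the control mean, which was 0.136, 0.145, 0.146, 0.179 and 0.194 respectively. Their log2 fold changes were -0.83, -0.85, -0.89, -1.22 and -0.74, close to that of MB because likeness was the rule that chose them.

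Most muscle markers were at or near 0. Of 18 muscle marker genes, 11 had any count and 2, TTN and TNNT1, could be tested. The summed level of the 18 was 37.9 to 40.1 CPM in the sgRNA control libraries and 34.6 to 43.4 CPM in the sgRNA #2 libraries. Without TTN and TNNT1 it was 0.566 to 1.75 CPM and 0.426 to 1.16 CPM, and DES, MYOD1, MYOG, MYH7, MYL1, TNNT3 and CASQ2 were at 0 in all 6 libraries. Of 8 markers of other cells, 5 had any count, and PTPRC (leukocytes), CDH5 (endothelium) and HBB (red cells) were at 0. CD68, a lysosomal protein used as a macrophage marker, had 402 to 480 counts and COL1A1, a fibroblast collagen, had 36 to 58. The summed level of the 8 was 69.0 to 75.3 CPM with the sgRNA control and 72.8 to 76.2 CPM with sgRNA #2.

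Of the epithelial markers of A549, the keratins KRT8, KRT7 and KRT18 were abundant, with KRT8 at 1772 CPM with the sgRNA control and 1614 CPM with sgRNA #2. EPCAM was low, at 8.39 ± 1.499 CPM (SD, n = 3) and 7.99 ± 0.603 CPM (SD, n = 3), and KRT19 had 0 to 4 counts. EPCAM and KRT19 are named after their values were seen. The summed level of the 6 epithelial markers was 3579 to 4542 CPM and 3379 to 4156 CPM. For CDH1, E-cadherin, the log2 fold change was -0.34 (SE 0.0669, adjusted p = 0.00728, edgeR), and its part in the levels of the globin and hypoxia genes was not tested.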

How the data were processed

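For 3 sgRNA control and 3 sgRNA #2 libraries, the authors deposited the unnormalized counts of htseq-count for each gene symbol. The submitters' processing notes name Trim Galore, FastQC, Bowtie2 2.3.3.1, SAMtools, Picard, HTSeq and hg38. The annotation and strand setting are not given in the sources used here. Reads outside annotated genes (19.7 to 21.1%) and ambiguous reads (2.61 to 2.75%) were left out of library sizes.

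A gene was tested if 3 or more libraries held 10 or more counts of it. The test was edgeR's (version 4.0.16, R 4.3.3) quasi-likelihood test after TMM normalization, with Benjamini-Hochberg adjustment over all 13356 genes. A gene passed both cut-offs with an adjusted p-value under 0.05 and a log2 fold change of at least 1 in size, which are the study's cut-offs. CPM used the TMM-scaled library sizes. With 3 libraries a group, an exact permutation test of 1 gene cannot give a two-sided p under 0.1. The 6 libraries are separate samples per the labels, and the study calls its triplicates biologically independent. On counts simulated for 13236 genes with 200 changed, 197 of the 199 changed genes that were tested were recovered, with 3 false calls. Recovery was not split by size of fold change, and recovery at the sizes reported here for MB and the HIF targets was not tested.

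The members and the gene lists were chosen with earlier results of these data known, so no pattern in them is independent evidence. Genes were named by rule: all members, and from each list the called genes, the 3 most abundant and the 2 with the largest fold change, all tested genes within 500 kb of MB and the 5 nearest to MB in profile. From these the text gives the ones that carry a comparison.

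Replicate numbers come from the labels. Deviations from the group means correlated between same-numbered libraries at 0.304 to 0.320 in every pair, so the numbers were taken to pair the samples. Between libraries of different number the correlations were -0.197 to -0.115. Deviations cancel out within a group, so these negative values follow from the positive ones and add no separate support. The block is given as an alternative because the study's methods use none. With the block, and in the fit without a count filter, the prior degrees of freedom that edgeR estimated were infinite, so those p-values use only the dispersion trend. The estimates were 13.0 for the reported test and 12.3 to 16.1 for the other edgeR alternatives. The block also removes variation that same-numbered libraries share, and the part of each in the number of calls was not tested.

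The other alternatives were DESeq2 1.42.0, RLE size factors, library totals alone, a minimum of 10 counts in each library or no count minimum, and leaving out each library. Positions are from GENCODE on hg38, to which 23161 symbols matched directly, 1370 matched through a RefSeq synonym and 1954 did not. Promoter sequences are from RefSeq (GRCh38.p14), in which 7 of the 10 members matched and CYGB, VEGFA and NDRG1 did not. The sgRNA sequence came from the study's supplementary tables and was placed on hg38 in Python 3.11.15.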

Additional observations from a re-analysis of the deposited data

How the results depend on the processing

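The log2 fold changes of the named genes, the numbers of genes past the cut-offs in the HIF target, oxygen sensing, globin, heme and near-MB lists, the median of the HIF targets and the guide match near MB were recomputed, the fitted ones under up to 12 alternatives. The levels, RPKM order, marker sums, profile likeness and overlap counts were not. Of 765 recomputed values, 694 counted as the same, 15 moved, 16 lost the threshold, 17 gained it and 23 changed sign. A fold change with a test was the same if it kept its side of the threshold. A value without a test was the same if it stayed within the replicate spread. The number of genes past a cut-off in a list was the same if equal or within a set ratio. The numbers past both cut-offs were 0 in every fit, so they could only count as the same. The log2 fold change of CYGB was 0.48 without sgRNA #2 replicate 1, and leaving out single libraries gave -0.20 to 0.48. CYGB was left untested by a minimum of 10 counts in every library and without sgRNA control replicate 2 or sgRNA #2 replicates 2 or 3. The number of HIF targets past the adjusted p-value was 8 with no count filter, 2 with DESeq2 and 1 to 4 with single libraries left out. The number of genes near MB past it was 2 with no count filter and 1 to 2 with single libraries left out (2 without sgRNA #2 replicate 3). The longest guide match near a start of MB was 6 bases within 2000 bp. In these cases the cause was not tested. The median of the HIF targets stayed between -0.02 and 0.03.

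With the replicate block, whose pairing is described with the processing, the number past the adjusted p-value was 15 for HIF targets, 1 for oxygen sensing, 3 for heme and 3 near MB. Over all tested genes 10.0% passed with the block. The lists overlap, and HMOX1 is counted in the HIF target, heme and near-MB numbers. Near MB it was the 1 gene past the adjusted p-value with a higher level, and 2 were lower. The log2 fold change of MB was -1.02 with the block, past both cut-offs. MB was chosen by its lower counts in these same libraries, so nothing is read from that pass. Among epithelial markers 2 passed with the block and 1 without it.

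These 23 changes of sign, like those of CYGB and NDRG1 given above as values without a test, came from leaving out single libraries. The ranges were -0.036 to 0.081 for HIF1AN, -0.23 to 0.00077 for CUL2, -0.021 to 0.055 for PKM, -0.026 to 0.055 for GAPDH, -0.068 to 0.026 for ENO1, -0.11 to 0.024 for CA12, -0.0048 to 0.10 for ERO1A, -0.091 to 0.092 for TTN, -0.20 to 0.058 for TNNT1, -0.16 to 0.072 for KRT7, -0.17 to 0.062 for KRT18 and -0.022 to 0.26 for COL1A1.

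MB had at most 103 counts in a library and CYGB at most 11, so counting error alone is wide for both globins, and a difference in CYGB or ANKRD37 of the size seen for MB could not be resolved.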
